A study of Mus musculus with 5 samples.

Results

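The comparison of high-fat diet obesity with lean control rested on 3 of the 5 RNA-seq libraries of the series: 2 libraries from obese mice given vehicle (obesity 1 and obesity 2) and the single library from a chow-fed control mouse or mice given vehicle (control 1). All came from visceral adipose tissue of male C57BL/6 mice that were 8 weeks old when the diets began. The obese animals ate a diet with 60% of its energy as fat for 8 weeks, and vehicle was then given by gastric tube for 28 days. The other 2 libraries, from obese mice given resveratrol, entered only the filter on low counts, the scaling factors and the estimate of spread between libraries. Members were taken by sample label, and every gene was kept: 24779 of 78334 gene identifiers passed the filter on low counts. The labels name neither the visceral depot nor the number of mice behind a library. They do not say whether obesity 1 and obesity 2 came from separate mice, so the p-values measure only the spread between these libraries, which may be technical.

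White fat stores triglyceride in adipocytes, which carry perilipin-coated lipid droplets and secrete hormones such as leptin and adiponectin. When fat expands on a high-fat diet, leptin output grows with fat mass, and macrophages that take up lipid gather around adipocytes. In male mice the large gonadal fat pad lies against the epididymis, the coiled duct in which sperm mature. Its epithelium secretes lipocalins, beta-defensins, cystatins and the glutathione peroxidase Gpx5, each in its own segment of the duct. Genes of that epithelium were therefore separated from genes of fat before the diet groups were read.

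The promoters of Lep and Gpx5 are shown as examples of a gene higher in obesity and a gene higher in the control. Both are the 250 bases before the first listed RefSeq start, from a table built on GRCm38.p6, while the deposited counts are on GRCm39. The Lep window is chr6:29059971-29060220 on the plus strand and the Gpx5 window is chr13:21292687-21292936 on the minus strand. Capitals mark a match to TTGCNNAA, letters of the kind that C/EBP factors, regulators of adipocyte genes, recognise.
Lep: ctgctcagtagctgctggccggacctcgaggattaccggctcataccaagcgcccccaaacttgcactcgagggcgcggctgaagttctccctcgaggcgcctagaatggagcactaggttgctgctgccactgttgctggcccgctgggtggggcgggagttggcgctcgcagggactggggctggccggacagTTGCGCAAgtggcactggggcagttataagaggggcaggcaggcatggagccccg
Gpx5: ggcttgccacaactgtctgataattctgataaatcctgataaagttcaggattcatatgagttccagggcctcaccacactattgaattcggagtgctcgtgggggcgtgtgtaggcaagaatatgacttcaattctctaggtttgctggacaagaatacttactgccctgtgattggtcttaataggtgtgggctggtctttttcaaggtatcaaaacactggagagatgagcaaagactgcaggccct

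The Lep match began 55 bases before the start. Searched on both strands of 27025 promoters of this length, TTGCNNAA stood in 9.55%, and in 3 of 18 promoters of the epididymal caput list and 1 of 8 of the adipocyte list defined further on. AGAACA stood in 16.2% of all promoters, in 5 of the 18 caput promoters and in 0 of the 8 adipocyte promoters. The letters TATAAA, at 13% of all promoters, and CAGGAAG, at 10.5%, were also searched, and among both lists only TATAAA was found, in 1 caput promoter. None of these motifs contains another. The matches describe the windows only.

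The libraries held 27026597 assigned counts for the control, 19540961 for obesity 1 and 21690850 for obesity 2. Levels are given as CPM, counts scaled to a common library size with TMM factors, and 3 counts, the limit that a count of 0 allows, equal 0.105, 0.157 and 0.143 CPM in that order. These limits and the intervals below cover counting error only. The library labelled control stood apart from the other pair: over genes, its log2 CPM correlated at 0.724 with obesity 1 and 0.698 with obesity 2, while the obesity libraries correlated at 0.964 with each other. At least 10 counts were seen for 22955 genes in the control and for 18008 and 17929 in obesity 1 and 2. The defining adipocyte gene Adipoq was present in the control but at 1.01% of the obesity mean, and the gene with most counts in the control was Gpx5. With 1 control library there is no replicate check of any difference below.

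No gene passed edgeR's quasi-likelihood test at an adjusted p under 0.05 in either direction (0% of 24779 genes). The smallest Benjamini-Hochberg adjusted p was 0.0999. At an unadjusted p under 0.05, 3129 genes (12.6%) were higher in obesity and 2889 (11.7%) were higher in the control. DESeq2 on the same counts called 2681 genes higher and 1843 lower in obesity, and limma-voom called 0. Without resveratrol 1, edgeR called 4944 higher and 4283 lower in obesity, and without resveratrol 2 it called 4746 and 4348; the cause was not tested. Because no gene passed, the results below are levels, and "higher" or "lower" means that both obesity libraries lay on the same side of the control library.

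By size alone, 2720 genes (11.0%) were at least 4-fold above the control in both obesity libraries, and 4249 (17.1%) were at least 4-fold lower. The genes in the higher set took 33.3% and 35.8% of all counts in obesity 1 and 2 and 2.56% in the control. Those in the lower set took 31.4% of the control counts and 1.02% and 0.961% of the obesity counts. Both obesity libraries lay above the control for 10113 genes (40.8%) and below it for 12036 (48.6%), and 2630 genes overlapped. The median log2 difference over all genes was -0.10.

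**Figure D1:**
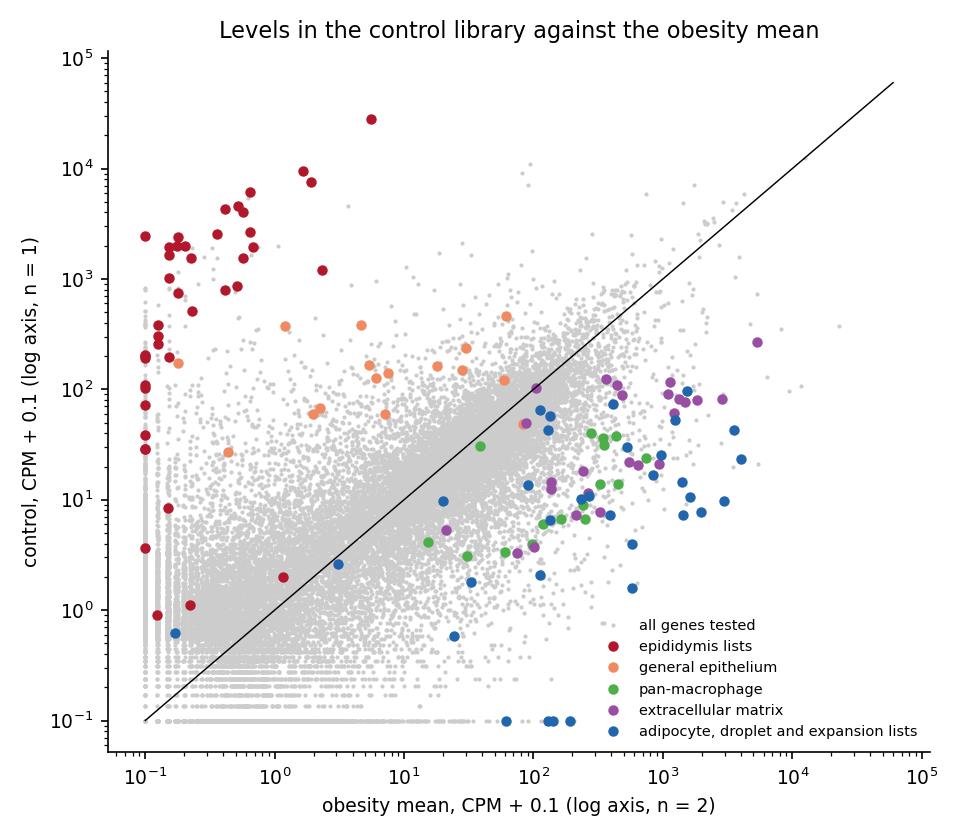
Level of each tested gene in the control library (y axis, CPM + 0.1, log axis, n = 1) against the obesity mean (x axis, CPM + 0.1, log axis, n = 2), with the line of equal levels. Epididymal genes (red) stand far above the line, led by Gpx5 at 28097 CPM in the control, and adipocyte, droplet and expansion genes (blue) mostly stand below it, 4 of them on the bottom edge with 0 control counts.

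The genes of the epididymal initial segment and caput were a feature of the control library. Gpx5 (ENSMUSG00000004344), the secreted glutathione peroxidase of the caput, stood at 28097 CPM in the control, 10.96 CPM in obesity 1 and 0 in obesity 2. All 23 genes of the caput list were at least 4-fold lower in both obesity libraries, where 17.1% of all genes were. Their summed level was 77194 CPM in the control, 25.8 CPM in obesity 1 and 0.286 CPM in obesity 2. The lipocalins Lcn8 and Lcn5, carriers of small lipophilic molecules in the duct, stood at 9451 and 6177 CPM in the control and at 3.13 and 1.10 CPM in obesity 1, with 0 counts in obesity 2. Adam7, a membrane protein passed to sperm, stood at 4613 CPM in the control, 0.835 CPM in obesity 1 and 0 in obesity 2. The cystatins Cst8 and Cst11 and the defensin Defb20 showed the same order of libraries.

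Genes listed under the corpus and cauda were present as well, though the segment of the duct that each came from was not tested. Of 19 such genes, 18 were at least 4-fold lower in both obesity libraries, and the list summed to 16998 CPM in the control, 8.30 in obesity 1 and 0.762 in obesity 2. Spag11b, a defensin-like sperm-binding protein, made up 7583 CPM of that control sum and stood at 3.60 CPM and 0 in obesity 1 and 2. The list sum therefore rests in large part, though not for the most part, on this gene. Crisp1, a cysteine-rich protein that coats sperm, stood at 2459 CPM in the control and at 0 in both obesity libraries. Itgb6, an epithelial integrin subunit, was the exception, at 1.88 CPM in the control, 2.09 in obesity 1 and 0.0476 in obesity 2. Spermatid transcripts accompanied the duct genes at low levels: Prm2, a protamine that packs sperm DNA, stood at 53.8 CPM, 0 and 0.333 CPM, and Odf1 of the sperm tail at 50.04 CPM, 0 and 0.333 CPM. Of 16 tested sperm and germ cell genes, 14 were lower in both obesity libraries. Sycp3, a meiotic chromosome axis gene, went against the list at 0.349, 15.7 and 16.9 CPM, and Prm1 had 0 counts in all 3 libraries.

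Markers of several cell classes of the duct wall were higher in the control, though not every member of their lists. Of 10 tested clear and narrow cell genes, 8 were at least 4-fold lower in both obesity libraries, as were 9 of 12 ciliated cell genes and 4 of 7 tested basal cell genes. Atp6v0d2, Tekt1 and Itga6 went against their lists, Itga6 at 35.8 CPM in the control against 120 and 187.3, and the basal list summed to 282.5, 275.2 and 189.2 CPM. Foxi1, the master regulator of acid-secreting cells, stood at 46.0 CPM in the control and at 0 in both obesity libraries, and the ammonia channel Rhcg at 395.7 CPM against 0 and 0. The basal cell keratin Krt14 stood at 70.0, 3.08 and 0.809 CPM. The ciliated cell regulator Foxj1 stood at 11.02, 0.522 and 0.0952 CPM, and Ccno, needed to build many cilia, at 78.6, 0.417 and 0.667 CPM. Pax8, a transcription factor of the duct, stood at 227.1 CPM against 0 and 0, and Srd5a2, which makes dihydrotestosterone, at 123.1 CPM against 0 and 0. Secretory genes of the seminal vesicle and prostate did not take part: Svs4, Svs5, Svs6 and Pbsn had 0 counts in all 3 libraries. Epithelial genes as a class were higher in the control in 15 of 16 cases, with Epcam at 385.7, 9.03 and 0 CPM. Krt7, at 48.9, 164.6 and 0.762 CPM, was the exception.

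Genes of protein folding and secretion were mostly higher in the library that held the duct genes. Of 14 genes of the unfolded protein response, 11 were higher in the control, 2 were lower and 1 overlapped, with a median control level of 229% of the obesity mean. Calr, a calcium-binding chaperone of the endoplasmic reticulum, stood at 1691 CPM in the control and at 507.5 and 646 CPM in obesity. Hspa5, the chaperone BiP, stood at 1205, 434.5 and 600.4 CPM, and Creld2 at 141.3, 29.0 and 33.9 CPM. Ddit3 and Atf6 went the other way, at 22.6 against 30.4 and 29.8 CPM and at 44.1 against 60.9 and 75.7 CPM. The part of the duct genes in these differences was not tested.

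To place fat genes on a common scale, the median control level over 9 adipocyte genes was taken as a yardstick. Adipoq (ENSMUSG00000022878), the insulin-sensitising adipokine, stood at 14.2 CPM in the control (95% Poisson interval 12.9 to 15.7) and at 1225 and 1587 CPM in obesity 1 and 2. Plin1, the main droplet coat of adipocytes, stood at 7.57, 1506 and 2460 CPM. Cidec, which fuses droplets, stood at 23.5, 3745 and 4214 CPM. All 9 genes were higher in both obesity libraries, 8 of them by at least 4-fold. Their control levels, as a percentage of the obesity mean, were 0.382 for Plin1, 0.590 for Cidec, 1.01 for Adipoq, 1.19 for Plin4, 1.77 for Acvr1c, 1.83 for Adrb3, 2.62 for Retn, 6.23 for Cfd and 33.4 for Adig. The yardstick was the median of these, 1.77%, and 1.48% without Adig, an alternative chosen after seeing the data. In bulk tissue, fewer adipocytes and less RNA per adipocyte cannot be told apart, and with 1 control library diet and the presence of duct RNA cannot be told apart either.

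The genes of fat storage with most counts in obesity stood close to the yardstick in the control. Scd1, the desaturase with most counts in both obesity libraries, stood at 377 CPM in the control and at 21364 and 24828 CPM in obesity. Lpl, which frees fatty acids from lipoproteins, stood at 106.4, 10996 and 12193 CPM, and the fatty acid carrier Fabp4 at 129, 7081 and 5622 CPM. Car3, a carbonic anhydrase abundant in adipocytes, stood at 96.7, 8003 and 10985 CPM. Of 13 fatty acid uptake genes, 9 were at least 4-fold higher in both obesity libraries, with a median control level of 4.84%. The transporter Slc27a4, at 84.2 CPM against 56.2 and 59.7, went the other way. Of 13 tested lipid droplet genes, 10 were at least 4-fold higher (median 4.38%), and Fitm1, at 0.523 CPM against 0 and 0.143, went the other way.

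Lipolysis and triglyceride synthesis genes were higher in obesity in most cases. Of 15 lipolysis genes, 13 were at least 4-fold higher in both obesity libraries, with a median control level of 6.03%. Lipe, hormone-sensitive lipase, stood at 30.9, 1675 and 2086 CPM, and Pnpla2, adipose triglyceride lipase, at 112.8, 1608 and 2161 CPM. Adra2a, the inhibitory adrenergic receptor, went against the list at 3.87 CPM in the control against 0.626 and 0.238. Of 14 triglyceride synthesis genes, 8 were at least 4-fold higher (median 10.1%), with Dgat2, which makes the last ester bond, at 32.9, 1990 and 3674 CPM. The isoenzymes Agpat3, Lpin2 and Lpin3 were lower in obesity: Lpin3 stood at 27.9 CPM against 10.4 and 16.6.

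Adipogenic regulators were split. Pparg, the master regulator of fat cells, stood at 1.64, 129.4 and 168 CPM, and Cebpa, its partner, at 40.9, 941.5 and 1400 CPM. Both nuclear receptor partners Nr1h3 and Rxra were higher in obesity. In all, 8 of 15 genes were at least 4-fold higher. Klf15 overlapped, at 44.4 CPM in the control against 32.4 and 52.0, and Prdm16, a brown fat regulator, was lower in obesity at 17.4 CPM against 10.5 and 6.90.

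Of 17 lipogenesis genes, 11 were higher in obesity, 5 lower and 1 overlapped, where 40.8% of all genes were higher and 48.6% lower. By at least 4-fold, 6 were higher in both obesity libraries and 3 lower, where 11.0% and 17.1% of all genes were. The count of 3 was thus near the share of all genes. Me1, which supplies NADPH, stood at 11.8, 398.9 and 348.2 CPM, and Pnpla3 at 2.37, 186.4 and 246.4 CPM. The desaturase Fads2 stood at 385.9 CPM in the control against 25.5 and 18.7 CPM, the desaturase Fads1 at 259.1 against 60.0 and 50.4 CPM, and the elongase Elovl6 at 222.2 against 25.8 and 16.9 CPM. Acly and Scd2 were also higher in the control, at 651.3 against 159.1 and 263.5 CPM and at 929.8 against 596.7 and 635.1 CPM. Srebf1, which switches on this pathway, overlapped at 401.3, 394.9 and 531.4 CPM. Of 16 cholesterol synthesis genes, 6 were higher in obesity and 9 lower, where 40.8% and 48.6% of all genes were, and 3 and 0 passed 4-fold, with Hmgcs1 at 95.3, 385 and 381.6 CPM and Fdft1 at 140.2, 45.4 and 38.9 CPM.

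Oxidation and respiration differed less between the libraries. Of 18 fatty acid oxidation genes, 17 were higher in both obesity libraries but only 6 by at least 4-fold, with a median control level of 26.6%. Acadm, the medium-chain dehydrogenase, stood at 48.8, 489.3 and 405.4 CPM, and Cpt1a, the gate into the mitochondrion, at 122.3, 148.2 and 177.6 CPM. Of 20 nuclear respiratory chain genes, 16 were higher in obesity and 0 by 4-fold (median 52.7%). Mitochondrially encoded genes did not follow them: 7 of 13 were lower in obesity, 3 were higher and 3 overlapped. The lower share was near that of all genes, of which 48.6% were lower and 40.8% higher. The gene mt-Co1 stood at 12424, 14927 and 10050 CPM, a log2 difference of 0.01 whose sign changed with the scaling. Among 15 insulin and glucose genes, 13 were higher in obesity, with Slc2a4, the insulin-responsive glucose transporter, at 14.7, 118.2 and 177 CPM. Enpp1, an ectoenzyme that dampens insulin receptor signalling, went against them at 416.5 CPM in the control against 9.70 and 7.19, a difference of -5.62 on the log2 scale (SE 0.485).

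**Figure D2:**
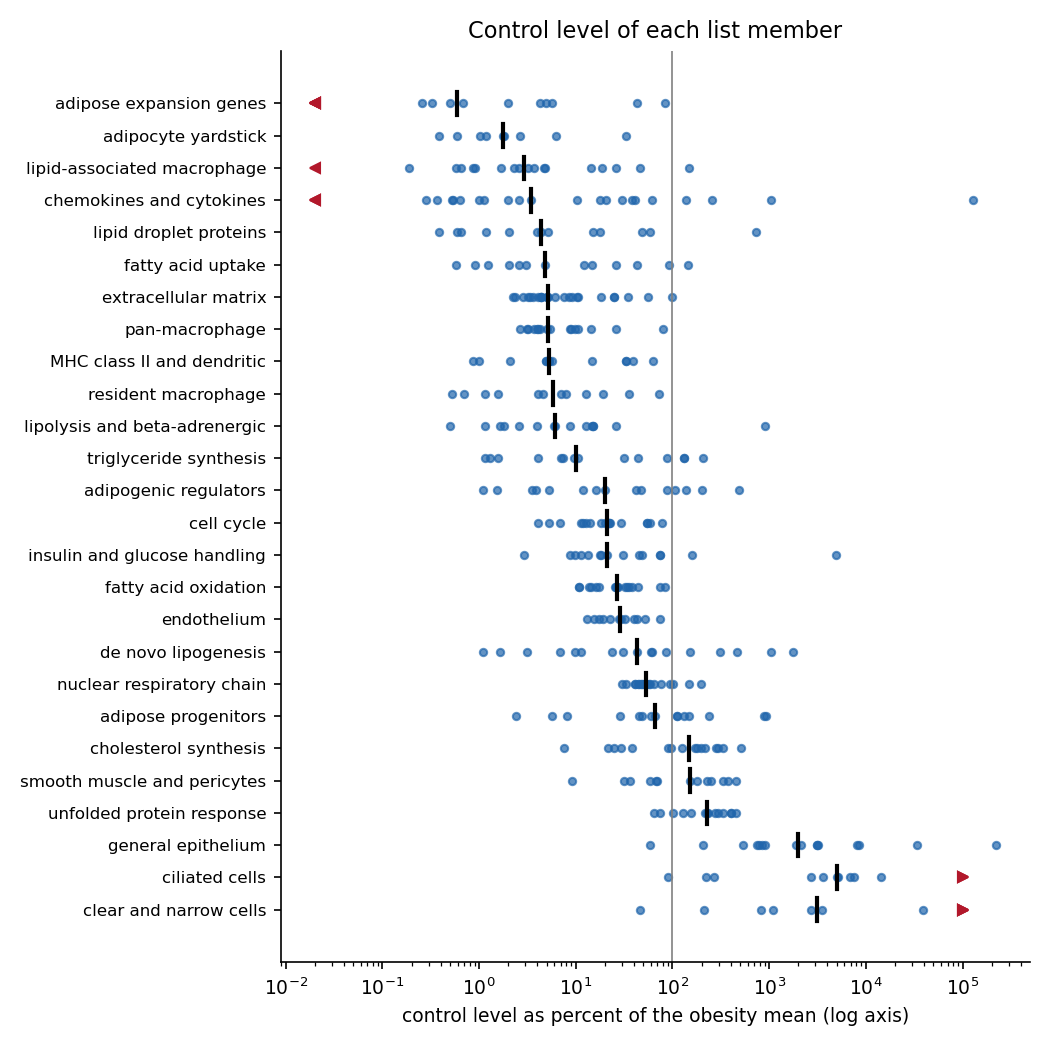
Control level of each tested list member as a percentage of the obesity mean (x axis, log axis; n = 1 control and 2 obesity libraries), for a selection of the gene lists (y axis), the epididymal secretory lists not among them. Points are genes, black bars are list medians, the grey line is 100%, and triangles on either side mark genes with 0 counts in the control (left) or in both obesity libraries (right). Medians of the lists drawn run from 0.59% for expansion genes and 1.77% for the adipocyte yardstick to 1999% for general epithelium, 3128% for clear and narrow cells and 5054% for ciliated cells.

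Several genes of fat had lower control levels, relative to obesity, than any yardstick gene. Of 11642 genes at 5 CPM or more in both obesity libraries, 95 (0.816%) had a control level under 0.382% of the obesity mean, the level of Plin1. The list called adipose expansion, whose members were not tested for following fat cell growth, held 6 such genes among its 14 members. Its median control level was 0.59%, and 12 of its 14 genes were at least 4-fold higher in both obesity libraries. Members of this list were chosen with earlier results of these data known, so the count is a description.

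Lep (ENSMUSG00000059201), the hormone that reports fat mass to the brain, stood at 9.69 CPM in the control (95% Poisson interval 8.59 to 10.9) and at 2832 and 3071 CPM in obesity. Both obesity libraries lay far above the control, and the log2 difference was 8.25 (SE 2.16), with an edgeR adjusted p of 0.182. Set against Adipoq within each library, which needs no scaling, Lep had 68.1 counts per 100 Adipoq counts in the control, 231.1 in obesity 1 and 193.5 in obesity 2. Sfrp5, a secreted Wnt inhibitor, stood at 1.5, 503.8 and 659.4 CPM, or 10.5, 41.1 and 41.6 counts per 100 of Adipoq. Npr3, the clearance receptor for natriuretic peptides, stood at 7.15, 1258 and 1579 CPM, or 50.3, 102.6 and 99.5 per 100. Yardstick genes also had lower ratios in the control: Plin1 stood at 53.2, 122.9 and 155.1 per 100 and Cidec at 165, 305.6 and 265.6. Pparg kept nearly the same ratio, at 11.5, 10.6 and 10.6 per 100, and so did Car3, at 679.4, 653 and 692.4 per 100. Slc2a4, Cfd and Retn were higher beside Adipoq in the control: Slc2a4 had 102.9 counts per 100 there against 9.64 and 11.2, and Retn, the adipokine resistin, 176.7 against 77.3 and 61.3.

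A group of genes had no count in the control library at all. Kcnk3 (ENSMUSG00000049265), a background potassium channel that restrains thermogenesis, stood at 124.9 and 159.8 CPM in obesity 1 and 2, which makes it at least 1361-fold higher than 3 counts in the control library. Bmp3 (ENSMUSG00000029335), a ligand of the BMP family, stood at 61.8 and 59.9 CPM, at least 582-fold higher. The amino acid transporter Slc36a2 stood at 187.6 and 193.2 CPM, at least 1820-fold higher. Tph2, a tryptophan hydroxylase of serotonin synthesis, stood at 167.4 and 91.8 CPM, at least 1239-fold higher. Had these genes followed the yardstick, 72.2 control counts of Kcnk3, 30.9 of Bmp3, 96.6 of Slc36a2 and 65.7 of Tph2 would stand in place of 0. At the Plin1 level of 0.382% the same figures are 15.6, 6.66, 20.8 and 14.2. These genes were named as given markers or for lying farthest below the yardstick. The gap to the yardstick therefore follows from the choice of genes and is a description, not a test. Bmp3 and Kcnk3 had the smallest p-values of the genes higher in obesity (both with an edgeR adjusted p of 0.0999).

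**Figure D3:**
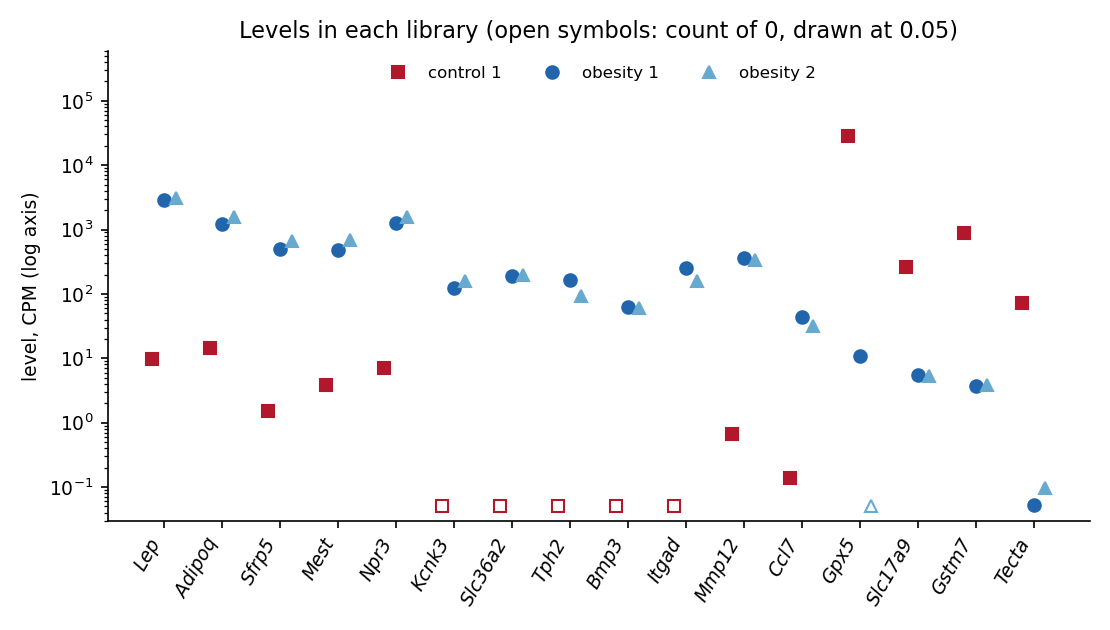
Level in CPM (y axis, log axis) of 16 genes (x axis) in control 1, obesity 1 and obesity 2; each symbol is 1 library and open symbols mark a count of 0, drawn at 0.05. Lep and Adipoq were detected in the control at 9.69 and 14.2 CPM, Kcnk3, Slc36a2, Tph2, Bmp3 and Itgad had 0 counts there, and the order is the opposite for Gpx5, Slc17a9, Gstm7 and Tecta.

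Macrophage genes were higher in obesity throughout. All 16 pan-macrophage genes were higher in both obesity libraries, 14 of them by at least 4-fold, and the list summed to 268.9 CPM in the control and to 4090 and 3779 CPM in obesity. Adgre1, which encodes the F4/80 antigen, stood at 6.63, 259.2 and 239 CPM, and Mpeg1, a pore-forming protein of phagocytes, at 13.9, 471.8 and 420.5 CPM. The median control level was 5.19%. Of 18 lipid-associated macrophage genes, 15 were at least 4-fold higher (median 2.90%). Lpl, Cd36, Plin2 and Fabp5 of this list also stand in fat lists; without these 4, a choice made after seeing the data, 11 of 14 were at least 4-fold higher (median 3.47%). Trem2, the lipid-sensing receptor of these cells, stood at 8.82, 316.8 and 228.1 CPM, and Lgals3, galectin 3, at 26.96, 1783 and 1451 CPM. Cd9 was the exception, at 212.8, 184.6 and 105.8 CPM.

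Itgad and Mmp12 of this list had control levels under that of Plin1. Itgad, the CD11d integrin, had 0 counts in the control against 250.6 and 156.8 CPM, at least 1947-fold. Mmp12, macrophage elastase, stood at 0.663, 360.4 and 339.8 CPM, which is 19 control counts where the yardstick gives 177.5. Itgax, the CD11c integrin, stood at 1.43, 151 and 180.2 CPM. Resident macrophage genes were higher in obesity too, all 12 of 12, with Clec10a at 1.604, 210.9 and 254.1 CPM and the mannose receptor Mrc1 at 7.22, 155.5 and 199.5 CPM. Retnla, a marker of alternative activation, stood at 5.79, 555.2 and 184.3 CPM.

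Chemokine and cytokine genes were mixed. Ccl2 stood at 0.314, 25.7 and 30.7 CPM, Ccl7 at 0.140, 43.8 and 31.5 CPM, and Ccl9 at 2.44, 481.6 and 450.4 CPM. Of 23 chemokine and cytokine genes, 13 were at least 4-fold higher in both obesity libraries and 2 at least 4-fold lower. The cytokines Tnf and Il6 were scarce in every library, at no more than 1.90 and 0.157 CPM. Il1b was lower in obesity, at 1.01 CPM against 0.209 and 0.571. The genes at least 4-fold lower were Lcn2, a lipocalin, at 4613 CPM against 4.70 and 2.48, and Cx3cl1, fractalkine, at 56.6 against 6.73 and 4.14 CPM.

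Antigen presentation and lymphocyte genes behaved differently from each other. All 13 MHC class II and dendritic cell genes were higher in obesity, 9 by at least 4-fold, with Cd74, the invariant chain, at 98.6, 1901 and 1601 CPM. T and NK cell genes were mixed. Of 14, 9 were higher in both obesity libraries, 2 were lower and 3 overlapped, where 40.8% of all genes were higher and 48.6% lower. By at least 4-fold, 4 were higher and 1 lower. Of 11 B cell genes, 8 were higher in obesity, 2 of them by at least 4-fold, and 2 were at least 4-fold lower. The T cell gene Cd3g was low throughout, at 0.384, 0.574 and 1.05 CPM. Il7r stood at 0.105, 50.6 and 38.7 CPM, and Klrb1c, a C-type lectin receptor of NK cells, went against the list at 204.7 CPM in the control against 0.887 and 1.71. Of 9 mast cell genes, 6 were higher in both obesity libraries, 2 were lower and 1 overlapped. By at least 4-fold, 4 were higher, where 11.0% of all genes were. The list summed to 48.2 CPM in the control and to 64.9 and 29.8 CPM in obesity 1 and 2. The mast cell protease Mcpt4 stood at 0, 9.29 and 3.71 CPM, while the receptor Kit stood at 22.7, 6.26 and 7.66 CPM.

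Matrix genes were higher in obesity in 24 of 25 cases, 20 of them by at least 4-fold. Col3a1, a fibrillar collagen, stood at 81.3, 3246 and 2523 CPM, Col4a1 of the basement membrane at 79.6, 1544 and 2119 CPM, and Sparc, a collagen-binding glycoprotein, at 267.5, 5569 and 5067 CPM. The median control level was 5.17%. Mmp14 overlapped, at 103.8, 129 and 81.4 CPM. Vessel genes were nearer to equal: all 12 endothelial genes were higher in obesity, 5 by at least 4-fold, with a median control level of 28.6% and Pecam1 at 33.0, 152.4 and 136.5 CPM.

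Progenitor and smooth muscle genes did not follow the adipocyte genes. Of 15 progenitor genes, 8 were higher in obesity, 5 lower and 2 overlapped, where 40.8% of all genes were higher and 48.6% lower. Pdgfra, the receptor that marks progenitors, stood at 150.4 CPM in the control against 61.8 and 63.7, and Dpp4 at 82.2 against 7.04 and 10.7 CPM, while Fgf10, a growth factor for preadipocytes, stood at 1.08, 47.0 and 43.8 CPM. Of 13 smooth muscle and pericyte genes, 7 were lower in obesity and 6 higher, near those shares of all genes. Their median log2 difference was -0.59, and 1.27 with the replicate number as a block. Acta2, smooth muscle actin, stood at 528.8, 322.7 and 268.1 CPM. Proliferation genes were all higher in obesity (18 of 18, 11 by at least 4-fold, median control level 20.9%), with Mki67 at 5.61, 42.8 and 51.0 CPM. The duct wall also holds smooth muscle and fibroblasts, and its part in these lists was not tested.

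The 15 genes higher in obesity with the smallest p included Adra1d, an alpha-1D adrenergic receptor, at 0.174, 19.5 and 22.0 CPM, with a log2 difference of 6.85 (SE 0.514). Mcub, an inhibitory subunit of the mitochondrial calcium uniporter, stood at 0.802, 29.8 and 29.7 CPM. Adap1 stood at 0.488, 87.5 and 83.6 CPM, and Olfm1 at 6.42, 177.6 and 209.7 CPM. Maoa, which oxidises catecholamines and serotonin, stood at 7.53, 82.8 and 86.2 CPM. Slc4a7, Aatk, Mbp, Adam23 and Emp3 stood among them, with Bmp3, Kcnk3, Itgad and Fgf10.

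Among genes lower in obesity, Slc17a9, the vesicular nucleotide transporter, stood at 259.1, 5.58 and 5.28 CPM, with a log2 difference of -5.57 (SE 0.278) and an edgeR adjusted p of 0.0999. Gstm7, a glutathione transferase, stood at 877.5, 3.70 and 3.86 CPM. Adgrg2, an adhesion receptor of the male excurrent ducts, stood at 950.8, 5.32 and 6.62 CPM. Ido1, which degrades tryptophan, stood at 452.3, 0.626 and 0.238 CPM, and Greb1, a hormone-induced gene, at 87.1, 0.104 and 0.143 CPM. Arnt2, Tecta, Sytl4, Ly6g5b, Lipg, Bmyc, Rab11fip4, Teddm2, Lingo1 and Cryba4 completed this set. The 10 genes with most counts in the control were Gpx5, mt-Co1, Lcn8, Clu, Spag11b, Itm2b, Chd9, Lcn5 and 2 identifiers without a symbol. Clu, the chaperone clusterin, stood at 9070, 92.0 and 70.7 CPM, Chd9, a chromatin remodeller, at 7043, 96.5 and 85.2 CPM and Itm2b at 7070, 1823 and 1658 CPM.

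The obesity libraries also differed from each other. By at least 4-fold, 730 genes were higher in obesity 1 and 260 in obesity 2. The genes named in this paragraph outside the lists were chosen after their values were seen. Uroplakins, genes of the bladder lining or urothelium, were higher in obesity 1 than in obesity 2, and some were present in the control too. Upk1a stood at 70.0 CPM in obesity 1, 0.143 in obesity 2 and 32.9 in the control, and Upk1b at 82.5, 4.00 and 76.5 CPM. Upk3a stood at 84.3 CPM against 0 in obesity 2 and 0.837 in the control, and Upk2 at 43.5 against 0 and 0.697 CPM. The keratin Krt5 stood at 132.1 CPM in obesity 1, 0 in obesity 2 and 57.3 in the control, and Sprr2a1, a cornified envelope protein, at 250.1, 0 and 0.453 CPM. Myh11, the smooth muscle myosin, stood at 137.5, 22.6 and 299.3 CPM in the same order, and Cnn1 at 33.7, 0.238 and 76.1 CPM. General epithelial genes summed to 618.3 CPM in obesity 1 and 11.6 CPM in obesity 2.

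Some thermogenic genes of brown and beige fat differed within the pair as well. Of 14 tested genes of the thermogenic list, 8 were higher in both obesity libraries, 5 were lower and 1 overlapped. Over all genes, 40.8% were higher and 48.6% lower. By at least 4-fold, 5 of the list were higher and 0 lower, where 11.0% and 17.1% of all genes were. Those of the list named in this paragraph are among the 8 that were higher. Ucp1, the uncoupling protein, stood at 88.6 CPM in obesity 1, 0.381 in obesity 2 and 0.244 in the control. Cidea stood at 45.3, 2.90 and 0.488 CPM, Cox8b at 52.6, 5.43 and 0 CPM, and Dio2, which activates thyroid hormone, at 3.13, 0.0952 and 0 CPM. The size of these differences from the control therefore depends on which obesity library is used, whereas Kcnk3 and Otop1 of the same list were close in both, Otop1 at 19.3 and 14.95 CPM. Msln, a mesothelial gene, stood at 4.90 CPM in obesity 2 against 0 in obesity 1, and the T cell gene Cd3e at 1.57 against 0.104. The sums of their lists did not follow them, but a few members carried much of each sum. The mesothelium list summed to 314.2 CPM in obesity 1 and 124.4 in obesity 2. It includes the epithelial keratin Krt19, at 114.6 and 3.43 CPM, and the uroplakin Upk1b, at 82.5 and 4.00 CPM. The T and NK list summed to 62.6 and 66.8 CPM, of which Il7r made 50.6 and 38.7 CPM. Sums without these genes were not taken.

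Epididymal traces in the obesity pair were seen mainly in obesity 1. In obesity 1, 20 of the 23 caput genes had at least 1 count, and in obesity 2, 3 of them. The median level in obesity 1 was 0.0145% of the control, with a highest value of 0.375% for Adam28. For these genes the control library stood above both obesity libraries whichever obesity library was set against it.

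**Figure D4:**
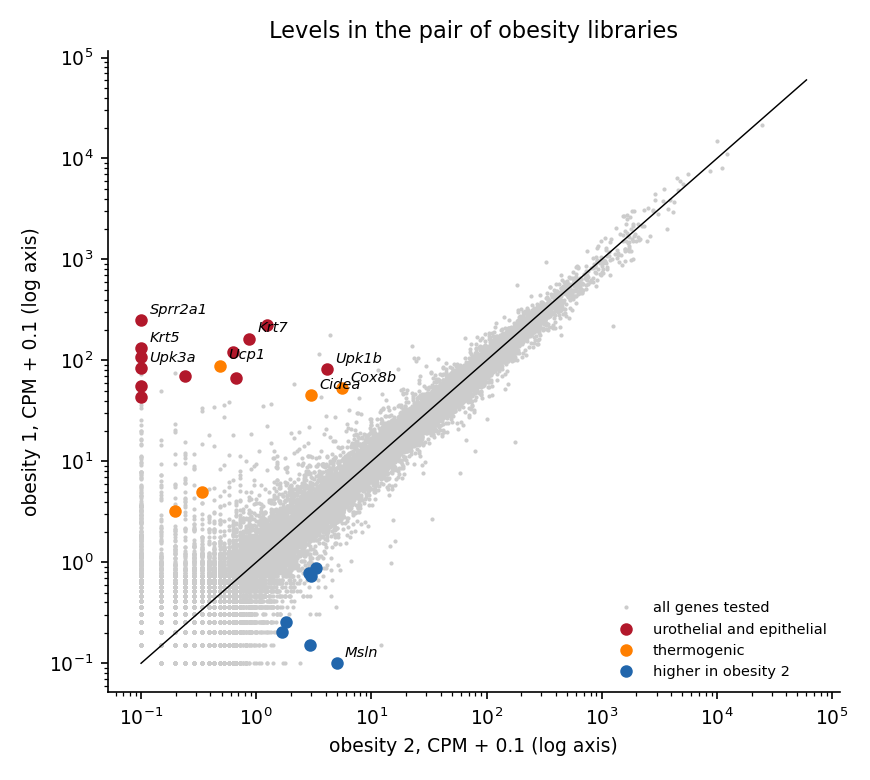
Level of each tested gene in obesity 1 (y axis, CPM + 0.1, log axis) against obesity 2 (x axis, CPM + 0.1, log axis), with the line of equal levels. The coloured genes were picked after their values were seen: the urothelial and epithelial genes (red) and thermogenic genes (orange) drawn stand above the line, with Ucp1 at 88.6 CPM against 0.381, and the genes drawn in blue, Msln among them, stand below it.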

How the data were processed

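Visceral adipose tissue RNA was sequenced from poly(A)-selected, stranded libraries, per the labels' protocols. The deposited table holds raw counts per Ensembl gene for 5 libraries. The submitters' processing notes name FastQC, featureCounts and the GRCm39 build; neither an aligner nor a strand setting is given in these sources, so overlapping and antisense genes cannot be told apart. Symbols were in the tables used for 51486 of 78334 identifiers (65.7%).

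Counts were fitted with edgeR 4.0.16 in R 4.3.3 (TMM factors, filterByExpr at 10 counts and 15 in total, robust quasi-likelihood fit of all 5 libraries, two-sided, Benjamini-Hochberg adjustment at 0.05). The biological coefficient of variation was 62.2%. The obesity libraries differed by more than sampling noise (chi-square per degree of freedom 38). Fold changes use a floor of 3 counts per library. Alternatives used DESeq2 1.42.0 and limma 3.58.1.

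Genes were read in 54 lists (768 symbols), each described by counts and medians. Named genes were the 5 markers, 15 genes per direction with the smallest p (mean of 1 CPM or more), the 10 with most counts in each library, up to 5 leading members of each list with those against its majority, and 10 list genes at each side of the yardstick at 5 CPM or more in obesity. Members and lists were chosen with earlier results of these data known. A few genes that the rule names are not reported here.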

Additional observations from a re-analysis of the deposited data

How the results depend on the processing

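Over scalings by median-ratio factors, upper quartile or total counts, a filter at 50 counts, a fit that is not robust and limma-voom, the count of genes past the adjusted threshold stayed at 0 in both directions. It was 1257 higher and 1318 lower in obesity with no filter, 4812 and 4457 with only the 3 libraries compared, and 2681 and 1843 with DESeq2. Leaving out each replicate gave 0 to 4944 higher and 0 to 4348 lower; the cause was not tested. The 4-fold counts of 2720 and 4249 became 5081 and 7231 at a fold of 2, 762 and 1224 at a fold of 16, and 2790 lower at 50 counts; without either obesity library they ranged from 3275 to 3426 and from 4833 to 5230. The yardstick of 1.77% was 1.01% by Adipoq alone, 4.79% by the lipid droplet list, 1.38% to 2.28% without either obesity library and 1.48% without Adig. Upper quartile scaling moved the median of all genes from -0.10 to -0.29 (log2). The mt-Co1 difference of 0.01 changed sign, to -0.05 (median-ratio, DESeq2), -0.18 (upper quartile), -0.11 (total counts), -0.08 (50 counts), -0.02 (limma-voom) and, without either obesity library, -0.28 to 0.27. Replicate numbers are shared by the obesity and resveratrol libraries only as numbers (Pearson r of deviations over genes 0.282, over 2 pairs); with the replicate block 0 genes passed in either direction, and the log2 differences of Cnn1, Myh11 and Myl9 and the medians of the smooth muscle and skeletal muscle lists turned to 0.24, 1.27, 0.58, 1.27 and 0.60. The absence of a second control library and the few counts of fat genes in the control (408 for Adipoq) limit every level given.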

Other observations

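Outside the fixed lists, 80 of the 95 genes under 0.382% of the obesity mean in the control belonged to no list, and 76 of the 95 had 0 control counts. Those named here were chosen after their values were seen, for a known role, and not by rank. Trarg1, a regulator of glucose transporter trafficking in adipocytes, stood at 1.67 CPM in the control and at 584 and 679.6 CPM in obesity 1 and 2. Ubd, a ubiquitin-like modifier induced in inflammation, stood at 0.663, 434.4 and 243.6 CPM, and the metalloproteinase Adam8 at 0.976, 243.1 and 311.7 CPM. Orm1, an acute-phase protein, stood at 0.593, 184.6 and 187.9 CPM. Slc5a7, the choline transporter, stood at 0, 98.4 and 152 CPM, and Igfals, a carrier subunit for insulin-like growth factors, at 0, 74.9 and 105.9 CPM. Il1rn, the interleukin-1 receptor antagonist, stood at 0, 84.8 and 41.6 CPM, and Hcar2, the receptor for niacin and ketone bodies on adipocytes, at 0, 25.6 and 31.1 CPM. For each of these, both obesity libraries lay above the control.

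Hox genes, which keep a record of body position, were divided between the libraries. Hoxb8 stood at 479.7 CPM in the control against 21.9 and 2.76 CPM in obesity 1 and 2, and Hoxd9 at 108.6 against 8.71 and 5.09 CPM. Hoxc10 stood at 1.5 CPM against 23.3 and 26.2, and Hoxc8 at 39.8 against 101.2 and 96.1 CPM. Of 21 genes of position and depot identity, which include genes outside the Hox clusters, 13 were higher in obesity and 7 lower. Over all genes, 40.8% were higher and 48.6% lower.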
